A study of Gossypium hirsutum with 2 samples.

Results

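The genes described here are 100 promoters of enzymes and related proteins of lipid, redox and specialised metabolism that carried a GhD53 peak in upland cotton (Gossypium hirsutum). They were chosen by the wording of their best protein hit (fatty acid, lipase, cytochrome P450, dehydrogenase, oxidase, reductase, peroxidase, glutathione, glycosyltransferase and similar words), with transcription factors and descriptions naming a kinase, phosphatase, receptor, transporter, laccase, ubiquitin, chloroplast or mitochondrion left out. They held 103 of the 2183 promoter peaks and were 100 of the 2111 genes in the longer of 2 deposited peak lists. The rule itself used no measured value beyond the presence of a peak.

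GhD53 belongs to the D53 family, repressors of strigolactone signalling that are degraded when the hormone is perceived. In DNA affinity purification sequencing, a tagged protein made in vitro is incubated with a library of bare genomic DNA, and the DNA held by the protein is sequenced. The purified library (IP) was set against 1 input library, both from genomic DNA of cotton fiber, the single-celled hair of the seed. With 1 library per fraction there is no replicate spread, so the values below are descriptions with no test, and no purification without GhD53 is among the libraries, so that signal from GhD53 and from other effects of the purification cannot be told apart. Fold enrichment, pileup and q-value are the authors' own. The file headers name pileup without defining it. It is read here, as peak callers that write this format define it, as the number of purified fragments over the summit of a peak.

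The enzymes concerned build and modify small molecules. Fatty acid synthases, desaturases and acyltransferases supply membrane and storage lipids, and very-long-chain fatty acids are known for their part in fiber elongation. Cytochromes P450 insert oxygen into sterols, terpenes, phenolics and hormones, and draw their electrons from a partner reductase. Glycosyltransferases then attach sugars that make such products soluble, while peroxidases and glutathione enzymes handle peroxides and, in the wall, the coupling of phenolics.

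By fold, the strongest of these promoters on a low background was that of a triacylglycerol lipase 2-like gene. The KEGG name of this gene is lysosomal acid lipase/cholesteryl ester hydrolase. Its peak reached 11.2-fold, with a pileup of 17 fragments over a background of 0.608. The promoters of a lignan-pathway dehydrogenase (9.34-fold) and of the P450 reductase (8.09-fold) followed. The exact Poisson 95% intervals of these 3 folds overlap (6.78 to 17.6, 6.17 to 13.6 and 4.48 to 13.7), so their order is not settled. Below these came a broad field of low peaks: 78 of the 103 peaks (75.7%) had a pileup of 4 to 6 fragments, against 75.1% of all 2183 peaks. The median fold of the enzyme peaks was 4.35, with quartiles of 3.73 and 4.35, and that of all peaks was 3.73, with quartiles of 3.40 and 4.35. That difference is a single fragment, a median pileup of 6 against 5, and the 95% interval of the enzyme median (3.73 to 4.35, from order statistics) includes the median of all peaks. With chloroplast and mitochondrial descriptions allowed, or with KEGG names searched in place of the protein hit, the enzyme median was 3.73, the same as that of all peaks.

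The size of a fold needs to be read against the few fragments behind it. The local background, recovered from each pileup and fold, stood at 0.608 fragments under 87 of the 103 enzyme peaks (84.5%), the same share as over all peaks (84.5%). On that background a pileup of 4 gave 3.11-fold, 5 gave 3.73-fold, 6 gave 4.35-fold, 7 gave 4.98-fold and 8 gave 5.60-fold. An exact Poisson 95% interval on 4 fragments runs from 1.09 to 10.2 fragments, or 1.30 to 6.99 in fold, and on 8 fragments from 3.45 to 15.8, or 2.77 to 10.4 in fold. Intervals cover counting error only, and copies made by PCR are not independent molecules. Order among promoters between 3.11-fold and 5.60-fold was therefore not detectable at this depth.

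**Figure D1:**
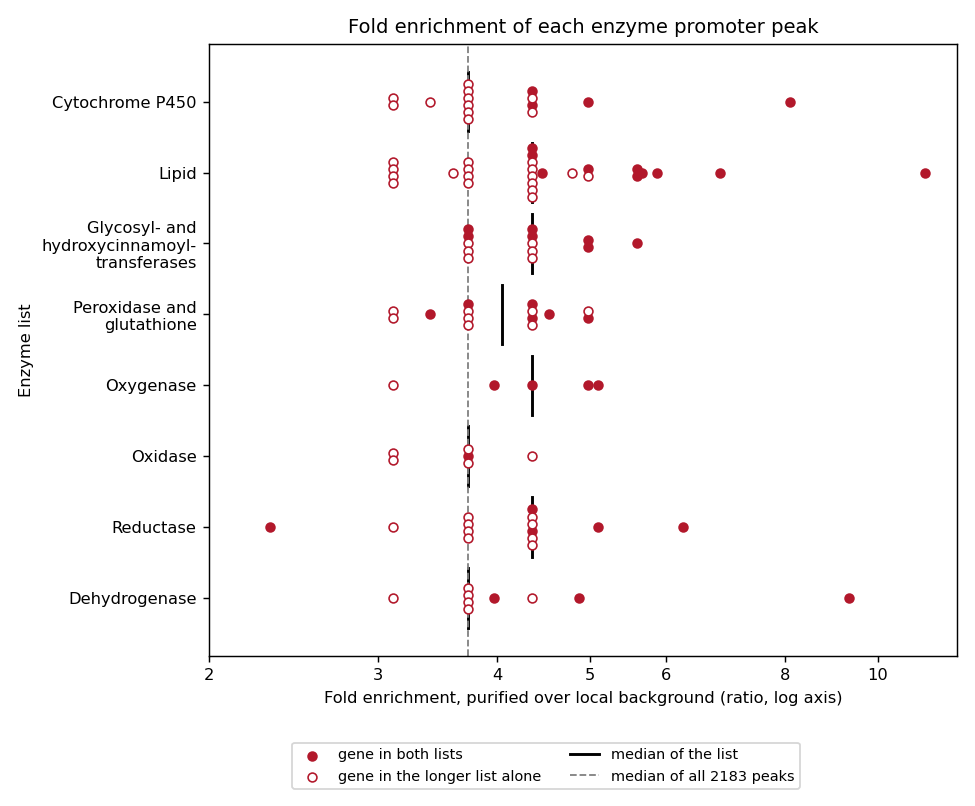
Fold enrichment of each of the 103 enzyme peaks on a log axis, by enzyme list; filled points are peaks of genes in both peak lists, open points are peaks of genes in the longer list alone, black bars are list medians and the dashed line is the median of all 2183 peaks. Most points stack at 3.11, 3.73 and 4.35, and the lipid list reaches farthest to the right, at 11.2.

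Of the 100 genes, 39 (39%, Wilson 95% interval 30.0 to 48.8) also had a peak in the shorter list, where the share over all genes was 34.3%. The interval includes the share of all genes. For 39 of the 40 longer-list peaks at these genes, the shorter list held a peak with the same summit, pileup, fold and q-value, so the lists are one measurement cut in different ways. The 7 enzyme peaks at or below a q-value of 1e-05 were 6.80% of them (interval 3.33 to 13.4), where the share over all peaks was 10.4%. The side on which this share fell depended on the choice of genes: it was 16.0% (23 of 144 peaks) when chloroplast and mitochondrial descriptions were allowed, and 15.6% (17 of 109) when the words were searched in KEGG names. A fold of 5 or higher was seen at 12 enzyme peaks (11.7%), against 12.0% of all peaks. A q-value of 0.05 or lower was held by 90 of them (87.4%, interval 79.6 to 92.5) and by 79.0% of all peaks. The lowest pileup, 4 fragments, was that of 13 enzyme peaks (12.6%, interval 7.53 to 20.4), against 19.7% of all peaks. These 13 were also the enzyme peaks above a q-value of 0.05, so both shares rest on the same peaks. The interval of the pileup share includes the value of all peaks. Among the shares of the 103 enzyme peaks and 100 genes in this paragraph, that at a q-value of 0.05 was the one whose interval left out the value of all peaks, by less than 1 percentage point, and no test was made.

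In 4 enzyme peaks the pileup passed 20 fragments, 3.88% of them against 5.31% of all peaks. At GH_A02G0732, whose best hit is a bacterial record of a plastid-type NAD(P)H-quinone oxidoreductase subunit H, the pileup was 148 over a background of 63.5, which left 2.31-fold, the lowest fold of the 100 genes. This gene lies in a stretch of chromosome A02 with further plastid-type loci: within 50 kb, 6 more peaks belonged to 2 genes described as chloroplast RF1 and NADH-plastoquinone oxidoreductase subunit 4, with pileups of 95 to 225. GH_A02G1649, described as NADH-plastoquinone oxidoreductase subunit 5, had a pileup of 55 over 7.96 (6.25-fold, counting interval 4.74 to 8.10), with no other gene's peak within 50 kb. Subunits with these names are normally encoded in the plastid genome, and both genes are listed on chromosome A02. Neither of the 2 descriptions holds a word that would have left the gene out. Without these 2 genes, 37 of 98 genes (37.8%) were in both lists and the median fold was again 4.35.

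The remaining tall peaks belonged to nuclear-type genes. GH_A10G2059, described as a subunit 6-like protein of mitochondrial complex I, had a pileup of 138 over a background of 27.5, or 4.87-fold (counting interval 4.10 to 5.75). Its peak lay at A10 104453240 to 104453493, 308 bp upstream of a gene span of only 241 bp, and no other gene had a peak within 50 kb. GH_A01G2212 encodes a secoisolariciresinol dehydrogenase-like enzyme, a short-chain dehydrogenase that acts on lignans, dimers of phenylpropanoids. It had a pileup of 25 (exact Poisson interval 16.2 to 36.9) over a background of 1.78, or 9.34-fold (6.17 to 13.6), at A01 114906631 to 114906969, 1102 bp upstream. The background was above the lowest level under all 4 tall peaks, least so at GH_A01G2212. Its part in their pileup was not tested.

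**Figure D2:**
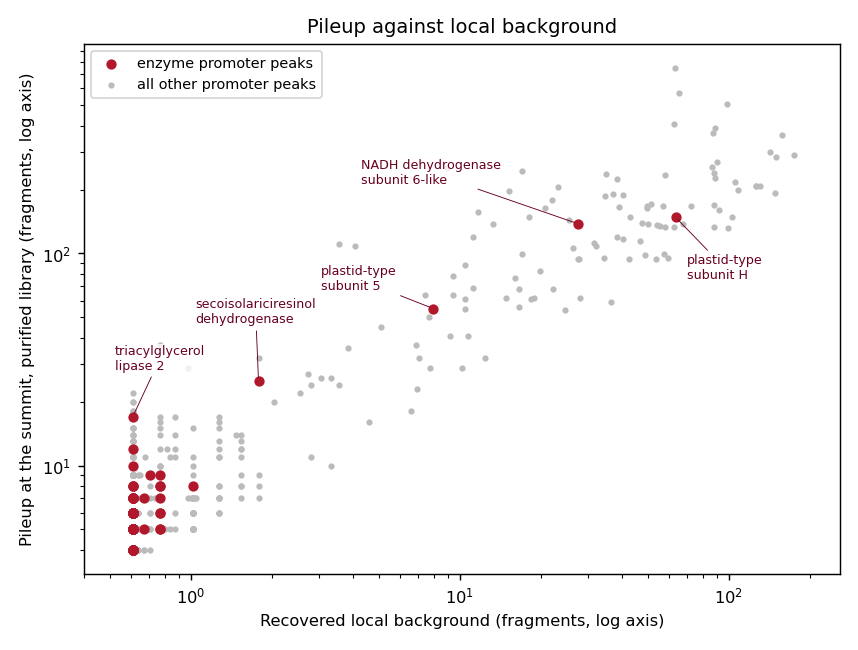
Pileup in the purified library against the recovered local background, both in fragments on log axes; red points are the 103 enzyme peaks and grey points all other promoter peaks. Of the enzyme peaks, 99 sit at a background of 0.608 to 1.02, and the 4 with a pileup above 20 stand at higher backgrounds, up to 63.5.

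Lipid metabolism was the longest list, with 26 genes and 27 peaks. Of these genes 10 were in both peak lists (38.5%, interval 22.4 to 57.5), against 34.3% of all genes. The median fold of the list was 4.35, and it held 6 of the 12 enzyme peaks at 5-fold or higher. These 6 were 22.2% of its peaks (interval 10.6 to 40.8), against 12.0% of all peaks. Each interval includes the share of all genes or peaks. GH_A07G2133, the triacylglycerol lipase 2-like gene, had its peak at A07 87245583 to 87245894, 1995 bp upstream of the start site, and the counting interval of its fold was 6.78 to 17.6. GH_D12G2410, described as the putative lipid-binding protein AIR1, reached 6.84-fold with a pileup of 10 at D12 56681681 to 56682161, 1707 bp upstream of a gene span of 328 bp. These were the only genes of the lipid list with a q-value of 1e-05 or lower.

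Behind them stood enzymes that handle acyl chains and membranes. GH_A05G4030, a fatty acid amide hydrolase-like gene, had 5.87-fold (pileup 9, 1809 bp upstream), and a second gene with the same description, GH_D07G1826 on another chromosome, had 4.35-fold (1233 bp upstream). In Arabidopsis this hydrolase breaks down N-acylethanolamines, lipid signals of seeds and seedlings. GH_D08G1227, a deacetylase of the kind that acts in bacterial lipid A synthesis, had 5.67-fold (1135 bp). GH_D11G3608, a FAD2-like desaturase of oleic acid, had 5.60-fold with its peak 1675 bp upstream. GH_A12G1917, a putative phospholipid-transporting ATPase 9 that would move lipids between membrane leaflets, had the same fold much closer to the gene, 442 bp upstream.

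The other lipid genes in both lists had 4.35 to 4.98-fold. They were the GDSL esterase/lipase gene GH_A12G0963 (4.98-fold, 965 bp), GH_A10G1411, a glycerol-3-phosphate 2-O-acyltransferase 6-like gene of the type that makes cutin precursors in Arabidopsis (4.46-fold, 1177 bp), and GH_A10G1273, the 3-ketoacyl-CoA synthase 11-like gene (4.35-fold, 577 bp). The highest folds among lipid genes in the longer list alone were 4.98 at GH_A07G1310, a non-specific phospholipase C2-like gene that releases diacylglycerol from phospholipids, and 4.79 at the aminoacylase-1-like gene GH_D09G0758. At 4.35-fold followed GH_A12G2069 (GDSL esterase/lipase), GH_D07G0832 (non-specific lipid-transfer protein 4-like), GH_D13G2508 (phospholipid:diacylglycerol acyltransferase 2) and GH_D07G2445 (phospholipid-transporting ATPase 8). The last of these carried 2 peaks, 1000 and 1442 bp upstream, both with a pileup of 6.

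Triacylglycerol synthesis was represented on both subgenomes. Upland cotton is an allotetraploid with an A and a D set of chromosomes, and the matching A and D copies of a gene are called homoeologs. GH_D11G0608 and GH_A11G0585, both described as diacylglycerol O-acyltransferase 2-like, the enzyme of the last step of this synthesis, had 4.35-fold (1334 bp upstream) and 3.73-fold (1875 bp upstream). A second A and D pair with a shared description was GH_D10G1294 and GH_A10G1596. They are shikimate O-hydroxycinnamoyltransferase-like genes whose enzyme makes an ester on the way to lignin monomers. They had 4.35-fold and 3.73-fold, 953 and 994 bp upstream. All 4 genes were in the longer list alone and their pileups were 5 or 6, so the genes of a pair cannot be ranked. These 2 pairs were the only ones among the 100 genes with the same description on same-numbered A and D chromosomes. Whether the genes of a pair are homoeologs was not tested. Their gene spans differed, 1002 bp for GH_D11G0608 and 3178 bp for GH_A11G0585, 1401 bp for GH_D10G1294 and 2136 bp for GH_A10G1596.

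Of 14 genes in the cytochrome P450 list 3 were in both peak lists (21.4%, interval 7.57 to 47.6), against 34.3% of all genes. The P450 list held 15 peaks, with a median fold of 3.73. It was led by GH_D05G2219, the NADPH--cytochrome P450 reductase that passes electrons to P450 enzymes. Its pileup of 12 on the lowest background gave 8.09-fold (counting interval 4.48 to 13.7), at D05 19286171 to 19286416, 1687 bp upstream. This was the only gene of the list past a q-value of 1e-05, and it is the partner of the P450 enzymes and not one of them. Among the P450 enzymes proper, GH_A07G1731 (P450 82C2-like) had 4.98-fold with a peak 395 bp upstream of a gene span of 748 bp. GH_A12G1650 (P450 71B36-like) had 2 peaks of 4.35-fold, 395 and 1549 bp upstream, and the farther one was also in the shorter list.

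The other P450 genes were in the longer list alone. GH_A09G0622 and GH_A09G2233, both CYP736A12-like and on the same chromosome, had 4.35-fold (1044 bp) and 3.73-fold (137 bp). The nearer peak was also named to the promoter of GH_A09G2234. GH_A03G1533 (P450 86B1-like, a fatty acid omega-hydroxylase of suberin synthesis in Arabidopsis) had 3.73-fold at 370 bp, and GH_A12G2051 (P450 71A26-like) 3.73-fold at 747 bp. All 3 genes that the authors' pathway column placed in brassinosteroid biosynthesis were P450 members. Their KEGG names are those of P450 enzymes, so this count follows in part from the choice of words. The 3 genes were GH_A02G0255 (CYP749A22-like, 4.35-fold, a gene span of only 442 bp), GH_A11G1541 (P450 724B1-like, 3.73-fold) and GH_A07G2001 (P450 85A-like, 3.11-fold). None was in the shorter list, where the share over all genes was 34.3%, and 3 genes set a share only loosely. In Arabidopsis, P450 711A1 oxidises the strigolactone precursor carlactone, and the 711A1-like gene GH_A05G0420 had 3.11-fold (1224 bp), on 4 fragments. GH_A07G2001 and GH_A05G0420 were chosen for their roles after their values were seen.

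The 13 P450 enzyme genes without the reductase were all on A chromosomes, and so were all 7 genes with peroxidase in their description. Over all genes of the longer list the A share was 49.5%, and over the 100 enzyme genes it was 57% (57 genes, Wilson 95% interval 47.2 to 66.3). The word peroxidase or cytochrome P450 picked 20 A genes and 1 D gene, the reductase. These families were singled out after their positions were seen, so no test applies. The pattern also depends on naming: 3 members with P450-type names in other lists, the isoleucine N-monooxygenase 2-like GH_D07G2126, the premnaspirodiene oxygenase-like GH_D13G1528 and the beta-amyrin 11-oxidase-like GH_A08G1841, bring the count to 14 on A and 2 on D. Lists with more genes on D were lipids, with 12 on A and 14 on D, transferases, with 6 and 7, oxygenases, with 1 and 4, and oxidases, with 2 and 3.

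**Figure D3:**
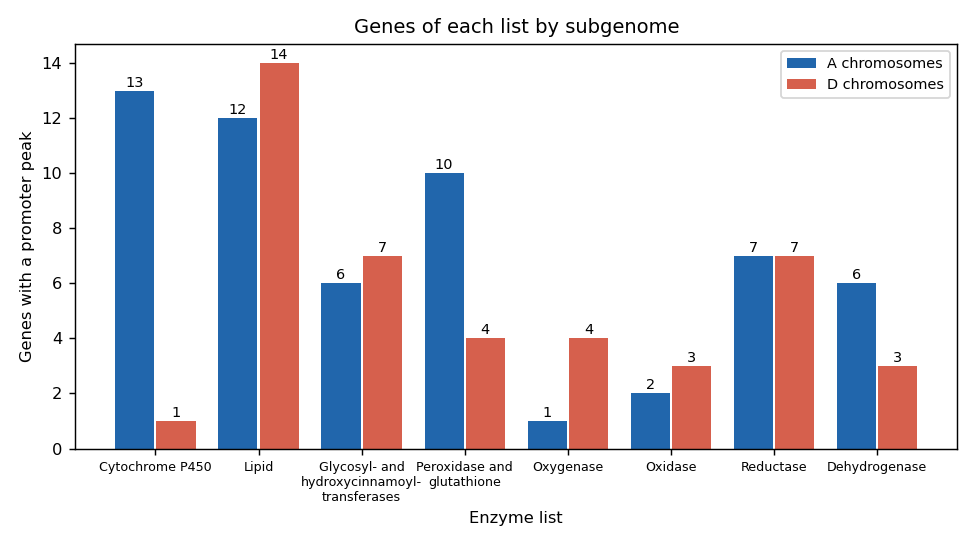
Number of genes with a promoter peak on A and on D chromosomes in each enzyme list, with the count above each bar. The cytochrome P450 list has 13 genes on A and 1 on D, the peroxidase and glutathione list 10 and 4, and the lipid and reductase lists are close to even.

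Glycosyltransferases and hydroxycinnamoyltransferases formed a list of 13 genes, and 7 of them (53.8%, Wilson 95% interval 29.1 to 76.8) were in both peak lists. The interval includes the 34.3% of all genes. All 13 peaks stood on the lowest background, with a median of 4.35-fold and a range of 3.73 to 5.60. GH_D06G0545, described as probable glycosyltransferase At5g20260, led with 5.60-fold and a peak 2062 bp upstream, and GH_D13G2282, with the same description, had 4.35-fold at 709 bp. The UDP-glycosyltransferases 73C attach glucose to small molecules, and in Arabidopsis some act on cytokinins and brassinosteroids. These 3 genes, grouped after their values were seen, were in both lists, as were 34.3% of all genes: GH_A09G1612 (73C2-like, 4.98-fold, 2092 bp), GH_D04G1194 (73C6-like, 4.35-fold, 693 bp) and GH_A05G0321 (73C3-like, 3.73-fold, 805 bp). They were 3 of the 4 genes of the longer list that the pathway column placed in zeatin biosynthesis, zeatin being a cytokinin. All 3 have the KEGG name UDP-glucosyltransferase 73C, the family by which they were grouped, so that count follows from the grouping.

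The remaining conjugating enzymes in both lists were GH_D01G1383, a crocetin glucosyltransferase-like gene (4.98-fold, 1288 bp, a peak shared with the promoter of GH_D01G1384), and GH_A01G1019, a family 92 glycosyltransferase (3.73-fold, 710 bp). In the longer list alone were GH_A12G0483, an anthocyanidin 3-O-glucosyltransferase 2-like gene of flower pigment synthesis (4.35-fold, 1745 bp), and GH_A10G2064, the STT3B subunit that adds glycans to proteins (4.35-fold, 1320 bp). The hydroquinone glucosyltransferase-like gene GH_D12G1889 and the UDP-glycosyltransferase 74B1-like gene GH_D05G3357 had 3.73-fold, 1489 and 119 bp upstream.

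Of 14 peroxidase and glutathione enzymes 6 were in both lists (42.9%, interval 21.4 to 67.4), against 34.3% of all genes. The median of these enzymes was 4.04-fold. None of the 14 peaks passed 5-fold or a q-value of 1e-05 (interval 0 to 21.5% for each). Of all peaks 12.0% and 10.4% did, shares that this interval includes. The 7 peroxidase peaks were centred between 1293 and 1989 bp upstream, with a median of 1572 bp. Of all peaks within 2000 bp, 60.8% lay beyond 1000 bp, a wider stretch than that of the peroxidase peaks. The steps of 1250 to 1500, 1500 to 1750 and 1750 to 2000 bp held 14.8%, 15.5% and 15.9% of all peaks. The 7 peroxidase genes were singled out after their positions were seen. They were the peroxidase N1-like GH_A01G0127 (4.53-fold), the lignin-forming anionic peroxidase-like GH_A01G1543 (4.35-fold), the peroxidase 17-like GH_A12G0856 (4.35-fold), and 4 genes at 3.73-fold: GH_A02G2001 (peroxidase 64-like), GH_A13G1085 (peroxidase 3-like), GH_A02G0586 (peroxidase 40-like) and GH_A09G1846, a probable glutathione peroxidase 2. GH_A01G0127, GH_A01G1543 and GH_A09G1846 were in both lists. Apart from the glutathione peroxidase, which detoxifies lipid peroxides, these are secreted plant peroxidases that oxidise phenolics, lignin monomers among them.

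The 6 glutathione S-transferase genes, whose enzymes couple glutathione to reactive compounds, were spread more widely, from 466 to 1919 bp upstream, with 3 on A and 3 on D chromosomes. GH_A12G0092 (F6-like, 4.98-fold), GH_D09G0159 (4.35-fold) and GH_D07G1954 (3.40-fold) were in both lists. GH_A02G0292 (U7-like) also reached 4.98-fold but was in the longer list alone, as was GH_A08G1894 (4.35-fold). Of the genes that the pathway column placed in phenylpropanoid biosynthesis, 9 of 16 were among the 100 enzyme genes, and of those in glutathione metabolism, 6 of 9. Since the pathway names overlap with the words that chose the genes, those shares follow in part from the choice.

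Of 5 oxygenase genes 4 were in both lists (80%, Wilson 95% interval 37.6 to 96.4), where the share over all genes was 34.3%, and a list of this size sets that share only loosely. GH_D03G1918, an inositol oxygenase 5-like gene whose enzyme turns inositol into glucuronic acid, a precursor of wall sugars, had 5.10-fold (pileup 8, 958 bp upstream) in a promoter shared with GH_D03G1919. GH_D07G2126, the isoleucine N-monooxygenase 2-like gene of aldoxime formation from amino acids, had 4.98-fold (595 bp), and GH_D13G1528, of sesquiterpene oxidation, 4.35-fold (1419 bp). A probable 2-oxoglutarate-dependent dioxygenase, GH_A02G1809, had 3.97-fold (1895 bp). The sphinganine C4-monooxygenase 1-like gene GH_D02G1360, which hydroxylates the base of sphingolipids, was in the longer list alone at 3.11-fold (1170 bp).

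Of 5 oxidase genes 1 was in both lists (20%, interval 3.62 to 62.4), against 34.3% of all genes. It was GH_D05G0535, a cytochrome c oxidase assembly factor 6 with 3.73-fold (696 bp). GH_D01G0345, a peroxisomal hydroxy-acid oxidase of the glycolate oxidase type, had 2 peaks of unequal height, 4.35-fold at 799 bp and 3.11-fold at 1849 bp, pileups of 6 and 4 that do not differ beyond counting error. The triterpenoid-type GH_A08G1841 (451 bp) and GH_D11G2603, a plant cysteine oxidase 2-like gene of oxygen sensing (1066 bp), had 3.73-fold, and the probable polyamine oxidase 4 gene GH_A08G0417 had 3.11-fold (1734 bp).

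Of 14 reductase genes 5 were in both lists (35.7%, interval 16.3 to 61.2), against 34.3% of all genes. The reductase list had a median of 4.35-fold. The plastid-type subunits described above account for both of its peaks past a q-value of 1e-05. Without these, the list was led by GH_A05G3783, a 2-methylene-furan-3-one reductase-like gene named for an aroma enzyme of strawberry (5.10-fold, 2005 bp). GH_A13G0085 (quinone oxidoreductase-like protein 2, 302 bp) and GH_D02G1818 (described as a non-functional codeinone reductase 2-like protein, 1656 bp) were also in both lists, each at 4.35-fold. In the longer list alone, 4.35-fold was reached by GH_A02G1564, a cinnamoyl-CoA reductase 2-like gene of lignin monomer synthesis (784 bp), GH_D04G0175 (NADPH:quinone oxidoreductase-like, 1136 bp), GH_D08G2427 (probable aldo-keto reductase 1, 1954 bp) and GH_A02G0610 (a short-chain dehydrogenase/reductase, 1934 bp). GH_A11G2842, also an aldo-keto reductase 1, and GH_D08G2643, a peroxisomal 2,4-dienoyl-CoA reductase-like gene of unsaturated fatty acid breakdown, had 3.73-fold (871 and 809 bp).

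Of 9 dehydrogenase genes 3 were in both lists (33.3%, interval 12.1 to 64.6), against 34.3% of all genes. The median of this list was 3.73-fold. After GH_A01G2212 and GH_A10G2059 came GH_D01G0805, a 3beta-hydroxysteroid-dehydrogenase/decarboxylase-like gene of sterol demethylation (3.97-fold, 1338 bp). The other 6 were in the longer list alone. GH_A12G0990, a probable mannitol dehydrogenase of the cinnamyl alcohol dehydrogenase family, had 4.35-fold (1998 bp). At 3.73-fold were the cytosolic glyceraldehyde-3-phosphate dehydrogenase gene GH_A11G0670 (1549 bp), the xanthine dehydrogenase 1-like gene GH_A02G0645 of purine breakdown (1415 bp), the 3-hydroxybutyryl-CoA dehydrogenase-like gene GH_A01G0591 (1749 bp) and the glucose and ribitol dehydrogenase homolog GH_D08G2384 (1317 bp). GH_D01G2159, a class-P alcohol dehydrogenase-like gene, the enzyme of ethanol fermentation, had 3.11-fold with a peak 134 bp upstream.

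Position was measured from the peak centre to the start site of the gene. All 103 peaks were annotated as promoter peaks of their gene, 3 of them centred slightly more than 2000 bp upstream. Of the 100 peaks centred within 2000 bp, 43 (43%, Wilson 95% interval 33.7 to 52.8) lay in the nearer 1000 bp, where the share over all peaks was 39.2%. The nearest 500 bp held 17 (17%, interval 10.9 to 25.5), against 13.8% of all peaks, and the farthest 500 bp held 30 (30%, interval 21.9 to 39.6), against 31.4%. Each interval includes the share of all peaks, and both sets of peaks thinned out toward the start site.

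**Figure D4:**
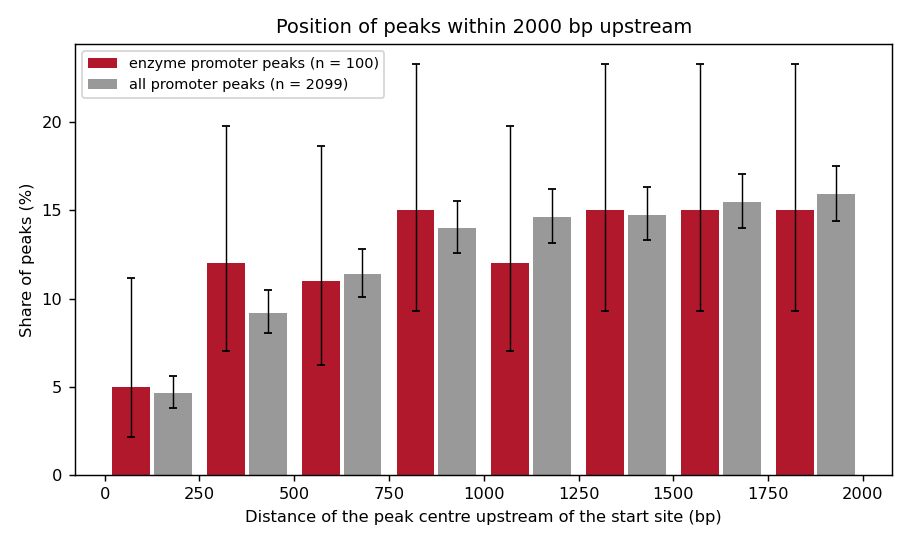
Share of peaks in 250 bp steps upstream of the start site for the 100 enzyme peaks and the 2099 peaks of all genes centred within 2000 bp; whiskers are Wilson 95% intervals. Both sets are lowest in the nearest 250 bp, at 5% and 4.62%, and the whiskers of the enzyme peaks span the shares of all peaks in every step.

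Shares by position are given here for some of the enzyme lists, picked after they were seen, and no test was made between lists. In the peroxidase and glutathione list 8 of 14 peaks (57.1%, interval 32.6 to 78.6) lay in the farthest 500 bp, against 31.4% of all peaks. Reductases had 9 of 13 peaks in the nearer 1000 bp (69.2%, interval 42.4 to 87.3), against 39.2% of all peaks. Among these 9 were the peaks of the plastid-type genes GH_A02G1649 (868 bp) and GH_A02G0732 (572 bp). The transferases had 7 of 11 peaks in the nearer 1000 bp (63.6%, interval 35.4 to 84.8). Cytochromes P450 had 5 of 15 peaks in the nearest 500 bp (33.3%, interval 15.2 to 58.3), against 13.8% of all peaks.

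**Figure D5:**
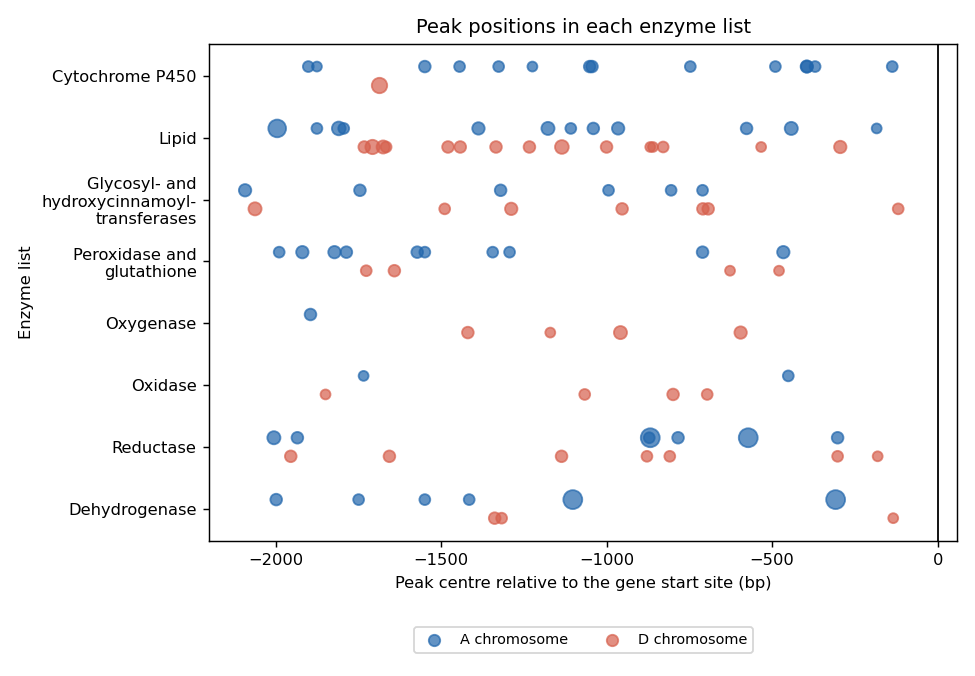
Centre of each enzyme peak relative to the start site in bp, by enzyme list; blue points are genes on A chromosomes and red points genes on D chromosomes, and point area grows with pileup up to 20 fragments. In the peroxidase and glutathione list 8 of 14 points lie in the farthest 500 bp. Among reductases 9 of 13 lie within 1000 bp, the plastid-type genes GH_A02G1649 and GH_A02G0732 among them.

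Peaks of the 100 genes had a median length of 176 bp, against 174 bp for all peaks. The annotated gene span had a median of 1649.5 bp, against 2230.5 bp for the other genes with a description and no transcription factor family and 1641 bp for all genes. Not every member is a small-molecule enzyme. The words also caught 8 genes for the respiratory chain, plastid-type complexes, protein glycosylation, protein lipidation and amino acid deacylation: GH_A10G2059, GH_D05G0535, GH_A02G1649, GH_A02G0732, GH_A10G2064, GH_A11G1788, GH_D01G2191 and GH_D09G0758. Best hits came from cotton species for 99 of the 100 genes.

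Related enzymes that the words missed gave a similar picture. A list of thioredoxins, glutaredoxins, lignin, flavonoid and terpene enzymes, oleosins and phosphatidyl lipid enzymes held 32 further genes with a peak. In both peak lists were 8 of them (25%, interval 13.3 to 42.1), against 34.3% of all genes, which the interval includes. The median was 3.73-fold, that of all peaks. This list was loose, and also caught phosphoinositide kinases and a fibrillarin. Some of its genes, laccases and kinases among them, hold a word that the rule excludes. GH_D05G0460, an oleosin 1-like gene for an oil body coat protein, reached 6.22-fold (1619 bp upstream) and was the only one with a q-value of 1e-05 or lower. The glutaredoxin genes GH_A07G2296 and GH_D02G0511 and GH_D04G1248, a phenylalanine ammonia-lyase-like gene for the entry step of phenylpropanoid synthesis, each had 4.98-fold, 1824, 1247 and 949 bp upstream.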

How the data were processed

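The 2 deposited lists of promoter peaks, from 1 purified and 1 input library, were used as given. Their columns, per the file headers, are a pileup signal, a fold enrichment ratio, and −log10 p-values and −log10 q-values. BWA, ChIPseeker and deepTools 2.5.4 are tools listed in the submitters' processing notes. What peak caller, genome build or cut-off was used is not given in the sources used here. Positions are as in the files. Depth is known only as pileup, and whether the authors scaled it is not stated.

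Members were genes of the longer list with no transcription factor family, at least 1 of 16 included words and none of 8 excluded words in the best protein hit. They went to 8 lists by the first matching word. Members and lists were chosen with earlier results of these data known. The local background was computed as (pileup + 1) / fold − 1. Wilson intervals, exact Poisson intervals and order-statistic intervals of medians, all at 95%, were computed with scipy 1.17.1 and pandas 2.3.3 in Python 3.11.15, and no test was run. Fold intervals treat the background as known. The genes named were all members in both lists, with a q-value of 1e-05 or lower, with a pileup above 20 or in a pair. Pairs were A and D genes with the same description on same-numbered chromosomes. Up to 6 further genes per list by fold and 4 related enzymes were also named. Others are named as chosen after their values were seen. The steps were tested on simulated data. Alternatives are given in the closing section.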

Additional observations from a re-analysis of the deposited data

How the results depend on the processing

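The 7 main results began with member genes, share in both lists, median fold and peaks with a q-value of 1e-05 or lower. The others were share within 1000 bp, share on A chromosomes and A and D pairs by description. All 7 were recomputed under 39 combinations of result and setting. Of the combinations, 35 stayed within the interval or within 1.5 times the reported count. Some of these could not move: all 103 peaks are annotated as promoter peaks, so keeping only such peaks left each of the 7 results as it was. Asking for an overlap of 1 bp with a shorter-list peak also had little room to change the share in both lists, since the summits are the same. The count of peaks with a q-value of 1e-05 or lower was the least stable. It was 7 as reported, 5 without the plastid-type descriptions, 23 (16.0%) when chloroplast and mitochondrial descriptions were allowed, 17 (15.6%) when KEGG names were searched in place of the protein hit, and 23 (22.3%, against 22.5% of all peaks) at a q-value of 0.001 or lower. As reported it was 6.80%, below the 10.4% of all peaks, and the chloroplast and KEGG settings put it above. The median fold was 3.73, that of all peaks, under those settings, and 4.53 in the shorter list, where the median of all peaks was 4.98. The fold of each of the 39 genes in both lists was the same in the shorter list, whose peaks have the same summits. No paired analysis was possible because each fraction had 1 library, and for the same reason no replicate could be left out. Pileups of 4 to 6 fragments limit every ranking below about 5-fold, and the counting intervals of the highest folds overlap as well.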
